A study of Mus musculus with 2 samples.

Results

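NF-kB is controlled by protein destruction, and the 10 genes described here include those of its 5 subunits (Rel, Rela, Relb, Nfkb1 and Nfkb2). The others encode 4 proteins of the IkB family (Nfkbia, Nfkbie, Nfkbid and Bcl3) and the feedback enzyme A20 (Tnfaip3). All 10 are described together. The 10 genes were taken by name from the 34745 gene rows of the count tables, where each stood on a single row, and all 10 of 10 were found. The RNA came from regulatory T (Treg) cells, which were isolated by sorting CD4+Foxp3+ (YFP+) cells of the spleen of C57BL/6 mice aged 2 weeks. The wild-type library came from poh1+/+ Foxp3Cre+ mice and the knockout library from poh1fl/fl Foxp3Cre+ mice, so both carry the Cre allele and differ in the floxed poh1 alleles. Because Cre is made in Foxp3-expressing cells, the deletion is limited to that lineage and need not be complete, and the sources used here do not say how many mice gave each library. There was 1 library per genotype, which leaves no replicate check and no test, and every comparison below is between these 2 libraries. Ranges in parentheses are 95% counting intervals. They cover counting error only, not the spread between mice. The reads carry no molecular identifiers, so 1 molecule may have been counted more than once.

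POH1, the product of Psmd14, removes ubiquitin chains from proteins that enter the proteasome. The proteasome acts at several steps of NF-kB signalling: it degrades the IkB proteins that hold the dimers in the cytoplasm, and it trims the precursors p105 (from Nfkb1) and p100 (from Nfkb2) to the DNA-binding subunits p50 and p52. In T cells the antigen receptor and CD28 drive the canonical arm, with RelA, c-Rel and p50, and members of the TNF receptor family drive the non-canonical arm, with RelB and p52. c-Rel is known for its part in the formation of Treg cells. Several genes of the family are themselves NF-kB targets, so that IkBα and A20 form negative feedback loops. RNA counts show transcripts, not the amount or the cleavage of these proteins.

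Total counts were 18124611 for the wild-type and 14544212 for the knockout library. Psmd14 had 1619 and 463 counts, 2.81-fold lower in the knockout library (2.53 to 3.12). Foxp3 and Cd4, the markers used for the sort, were present at high levels in both libraries. Foxp3 was at 671 and 1073 CPM (counts brought to a common sequencing depth) and Cd4 at 688 and 724 CPM. The full list of Treg markers, which went in both directions, is given below. Mitochondrially encoded transcripts made up 3.47% of wild-type and 2.16% of knockout counts, and 8 of 13 of them were lower by the rule given next.

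Genes were called higher or lower if the whole counting interval exceeded a 1.5-fold difference, and a gene counted as measured if either library held it at 1 CPM or above. By this rule 3 of the 10 genes, Bcl3, Nfkbie and Relb, were higher in the knockout library, and 2, Tnfaip3 and Nfkbid, were lower. The other 5, Rel, Rela, Nfkb1, Nfkb2 and Nfkbia, were within 1.5-fold. The same rule called 21.9% of all 13464 measured genes, 9.58% higher and 12.3% lower. All 10 genes also passed a stricter limit of 20 CPM, and at that limit the rule called 19.4% of 7884 genes, 8.87% higher and 10.5% lower. The median of log2(knockout/wild type) was 0.11 over the 10 genes and -0.01 over all measured genes. The members went in both directions, and neither median describes the 5 that were called. With intervals wholly beyond 2-fold, Bcl3 alone was higher and Tnfaip3 alone was lower, where the background was 11.0% of genes, 4.34% higher and 6.63% lower. In RNA from a sorted population, fewer cells of a kind and less RNA per cell cannot be told apart.

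**Figure D1:**
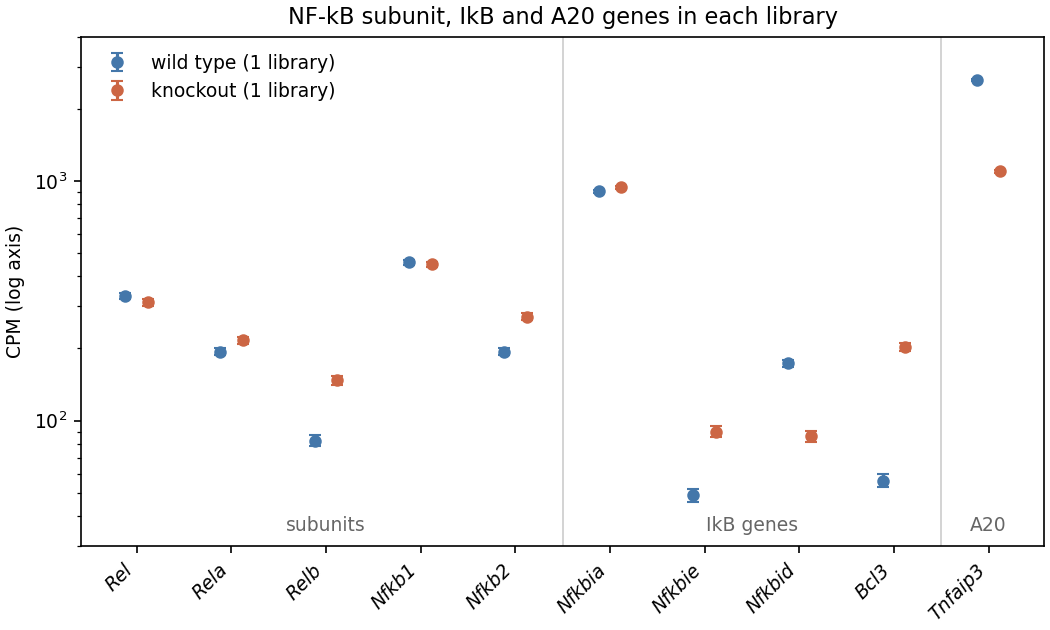
Level of each of the 10 genes in the wild-type (blue) and knockout (orange) library, in CPM on a log axis; bars are 95% exact Poisson intervals, often smaller than the point. Tnfaip3 was at 2642 and 1097 CPM and Bcl3 at 56.1 and 203 CPM, while the points of Rel, Nfkb1 and Nfkbia nearly coincide.

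Among the subunits, the genes of the canonical arm were close to level between the libraries. Rel, which encodes c-Rel, had 6007 counts (332 CPM) in wild-type and 4527 counts (311 CPM) in knockout cells, a ratio of 0.94 (0.90 to 0.98). Rela, which encodes the transactivating subunit p65, was at 194 CPM (3516 counts) and 217 CPM (3152 counts), a ratio of 1.12 (1.06 to 1.17). Nfkb1, the gene of p105 and p50, was at 457 CPM (8286 counts) and 450 CPM (6549 counts), a ratio of 0.98 (0.95 to 1.02). The wild-type library was the slightly higher one for Rel and the knockout library for Rela, and for Nfkb1 the interval held 1, its ratio running from 0.97 to 1.01 over the scalings tried. These 3 genes lay well inside the middle of all measured genes, whose quartiles of the log2 ratio were -0.44 and 0.39.

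In the non-canonical arm Relb was higher in the knockout library, and Nfkb2 stood between level and 1.5-fold. Relb (chr7:19606217-19629438, mm10, minus strand) had 1493 counts (82.4 CPM) in wild-type and 2139 counts (147 CPM) in knockout cells, 1.78-fold higher (1.67 to 1.91). RelB is the partner of p52 and the end point of that arm. Nfkb2 (chr19:46304320-46312385, plus strand), the gene of p100 and p52, had 3514 counts (194 CPM) and 3950 counts (272 CPM), a ratio of 1.40 (1.34 to 1.47). Its interval excludes 1 but does not pass 1.5-fold, and 79.2% of all measured genes had a lower ratio. Exons of Nfkb2 overlap those of Psd and another gene on the opposite strand over 18.1% of their length, and a kit that does not mark strand cannot separate them. Relb shares no exon with another gene.

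Among the cytoplasmic IkB genes, the abundant one was level and the minor one was higher. Nfkbia, which encodes IkBα, the inhibitor that is degraded and resynthesised within one round of signalling, had 16427 counts (907 CPM) in wild-type and 13688 counts (941 CPM) in knockout cells. Its ratio was 1.04 (1.01 to 1.06), and 53.8% of all measured genes had a lower one. Nfkbie (chr17:45555703-45563169, plus strand), which encodes IkBε, a slower inhibitor that favours dimers with c-Rel and RelA, had 883 counts (48.7 CPM) and 1309 counts (90.0 CPM). It was 1.85-fold higher in the knockout library (1.69 to 2.01).

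The 2 nuclear IkB genes among the 10 went in opposite directions. Their products bind p50 or p52 on DNA and can activate or repress genes there. Bcl3 (chr7:19808462-19822770, minus strand) had 1016 counts (56.1 CPM) in wild-type and 2959 counts (203 CPM) in knockout cells, 3.63-fold higher (3.38 to 3.90). It was the most raised of the 10 genes, and 97.2% of all measured genes had a lower ratio. Exons of Bcl3 overlap a noncoding gene on the other strand over 6.51% of their length. Nfkbid (chr7:30421732-30428746, plus strand), which encodes IkBNS, a nuclear IkB known to take part in Foxp3 induction with c-Rel, had 3138 counts (173 CPM) and 1251 counts (86.0 CPM). The knockout level was 2.01-fold lower (1.89 to 2.15). The wild-type library was thus the higher one for Nfkbid and the lower one for Bcl3.

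Tnfaip3 (chr10:19000910-19015657, minus strand) encodes A20, a ubiquitin-editing enzyme that NF-kB induces and that shuts off signalling from receptors to the IKK kinases. It had 47870 counts (2642 CPM) in wild-type and 15960 counts (1097 CPM) in knockout cells, 2.41-fold lower (2.37 to 2.45). Only 8.59% of all measured genes had a lower ratio. Of the reads on the 10 genes, Tnfaip3 took 51.9% in the wild-type (51.6% to 52.3%, exact Clopper-Pearson) and 28.8% in the knockout library (28.4% to 29.1%). The summed level of the 10 genes was 5086 and 3814 CPM, and that of the other 9 was 2444 and 2717 CPM. The lower sum therefore rested on Tnfaip3, and without it the sum was higher in the knockout library. Immediate early genes are transcripts that antigen receptor signals and cell handling induce within minutes. Of a list of 27, 12 were lower, 2 higher and 13 neither (median log2 ratio -0.58). Of all measured genes, 12.3% were lower and 9.58% higher. The summed level of the immediate early genes was 10554 and 8147 CPM. Their part in the level of Tnfaip3 and Nfkbid was not tested.

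**Figure D2:**
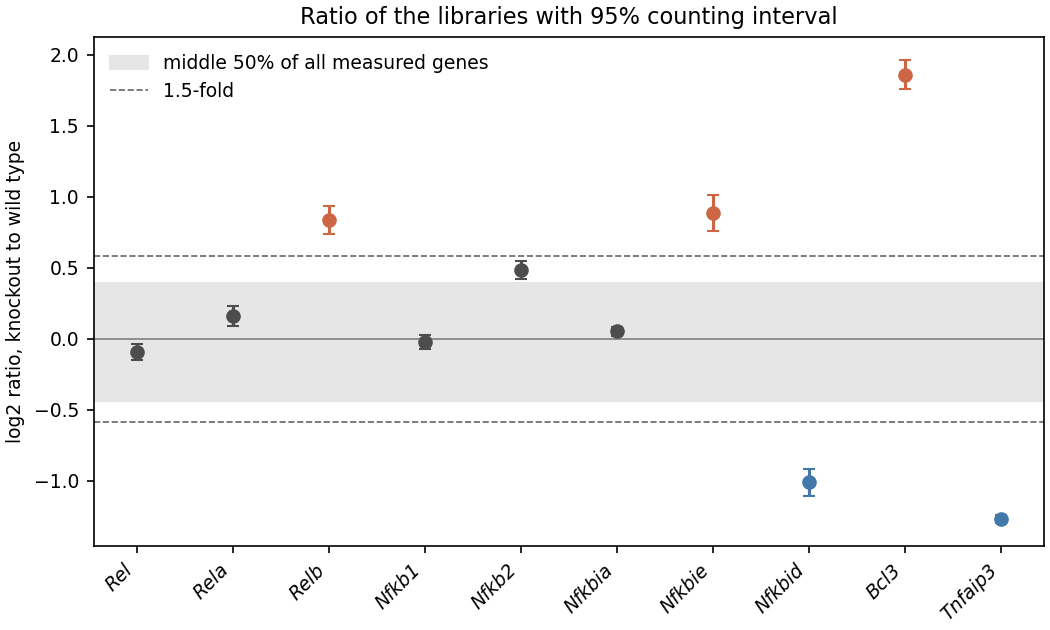
log2 ratio of knockout to wild type for the 10 genes with 95% counting intervals; orange points were higher and blue points lower with the whole interval beyond 1.5-fold (dashed lines), and the grey band spans the quartiles of all 13464 measured genes. Relb, Nfkbie and Bcl3 sit above the upper dashed line, Nfkbid and Tnfaip3 below the lower one.

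The ratio of 2 members within a library is free of the scaling between libraries, though not of gene length. The difference of such a ratio between the libraries is free of both. It was computed for 6 pairs, with Wald intervals from the 4 counts of each. The ratio of Bcl3 to Nfkbid transcripts was 7.31 times higher in the knockout library (6.63 to 8.05). The ratio of Relb to Rela was 1.60 times (1.47 to 1.73) and that of Nfkb2 to Nfkb1 1.42 times higher (1.34 to 1.504), so both subunits of the non-canonical arm were higher relative to their canonical counterparts. Rela relative to Rel was 1.19 times higher (1.12 to 1.27). Between the feedback inhibitors, Nfkbia relative to Tnfaip3 was 2.499 times higher (2.43 to 2.57), and between the cytoplasmic inhibitors, Nfkbie relative to Nfkbia was 1.78 times higher (1.63 to 1.94).

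Levels of different genes were compared per length, on the authors' FPKM (read counts divided by gene length and by the library total). Nfkbia was the most abundant of the 10 in both libraries, at 575 FPKM in wild-type and 597 FPKM in knockout cells. In the wild-type library Tnfaip3 followed at 189 FPKM, then Rela at 71.4, Nfkb2 at 57.3, Nfkbid at 50.1, Rel at 44.4, Nfkb1 at 28.2 and Nfkbie at 20.1 FPKM. Bcl3 at 15.4 and Relb at 14.9 FPKM came last, and their counting intervals overlapped. In the knockout library Nfkb2 at 80.3, Rela at 79.8 and Tnfaip3 at 78.6 FPKM came after Nfkbia, each overlapping the next. Bcl3 at 56.0 FPKM had moved from the ninth to the fifth place, ahead of Rel at 41.7 and Nfkbie at 37.2 FPKM. Nfkb1 at 27.7, Relb at 26.6 and Nfkbid at 24.9 FPKM closed the order, Nfkb1 and Relb overlapping each other and Relb overlapping Nfkbid.

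This order depends on the gene length that the authors divided by. The length behind the FPKM was 13958 bases for Tnfaip3 and 16227 bases for Nfkb1, which is 3.16 and 3.94 times their longest annotated coding transcripts of 4422 and 4117 bases. It also exceeded that transcript for Relb (5529 against 2209 bases), Bcl3 (3634 against 1850) and Nfkbid (3454 against 2039), so these 5 genes stand lower by FPKM than per kb of that transcript. For Rel, Rela, Nfkbia and Nfkbie it came within 1% of that transcript, and for Nfkb2 it was 0.880 times as long. Per kb of the longest coding transcript, Tnfaip3 was at 597 and Nfkbia at 574 in the wild-type library, and 248 and 596 in the knockout library. On this scale Tnfaip3 led in the wild-type library and Nfkbia in the knockout library. Nfkb1 was at 111 and 109, the highest of the subunits in both. Bcl3 was at 30.3 and 110, and so reached the level of Nfkb1 in the knockout library, their intervals overlapping. Nfkbid was at 84.9 and 42.2, below Nfkb1 in both libraries, and in the knockout library level with Rel at 41.7 within counting error and above Nfkbie at 37.0. The difference between the libraries for any 1 gene does not depend on its length.

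The make-up of the subunit pool was read as the share of each gene in the summed FPKM of the 5, which was 216 in wild-type and 256 in knockout cells. Relb took 6.89% of the wild-type sum (6.55% to 7.23%) and 10.4% of the knockout sum (9.96% to 10.8%). Nfkb2 took 26.5% (25.8% to 27.2%) and 31.3% (30.6% to 32.1%). The shares of the 3 other subunits were lower in the knockout library. Rel took 20.5% and 16.3%, Rela 33.04% and 31.2%, and Nfkb1 13.03% and 10.8%. Per kb of the longest coding transcript Nfkb1 held the largest share, 35.3% and 29.7%, and Relb 11.9% and 18.1%. The direction of each of the 5 shares was the same on both scales. The 4 IkB genes of the family together came to 3.05 times the subunit sum in the wild-type library (2.99 to 3.12). In the knockout library they came to 2.79 times that sum (2.73 to 2.85), and Nfkbia made up most of the ratio. Nfkbib and Nfkbiz, given below, were not part of it.

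**Figure D3:**
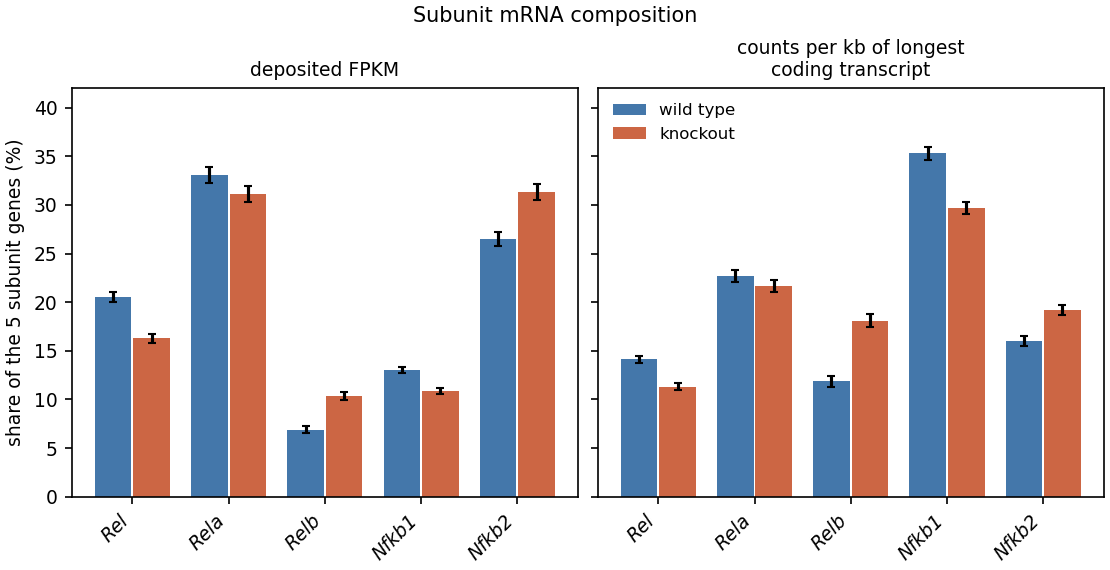
Share of each subunit gene in the sum of the 5 (percent, bars from 0) in the wild-type (blue) and knockout (orange) library, from the deposited FPKM (left) and per kb of the longest coding transcript (right); error bars are 95% counting intervals. Relb and Nfkb2 take a larger share in the knockout library on both scales, while the share of Nfkb1 depends on the length used.

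The upstream sequences of 3 IkB genes are shown because their transcripts were level (Nfkbia), higher (Nfkbie) and lower (Nfkbid) in knockout cells. They are the 250 bases before the annotated start in RefSeq (GRCm38.p6, the assembly of mm10), which held windows for 8 of the 10 genes, not for Relb and Nfkb1. Each runs 5′ to 3′ on the gene's strand, with CpG pairs, the sites of DNA methylation in mammals, in capitals. The window of Nfkbia is chr12:55492648-55492897 on the minus strand. That of Nfkbie is chr17:45555450-45555699 on the plus strand, and that of the first of the annotated starts of Nfkbid is chr7:30421481-30421730 on the plus strand.
Nfkbia: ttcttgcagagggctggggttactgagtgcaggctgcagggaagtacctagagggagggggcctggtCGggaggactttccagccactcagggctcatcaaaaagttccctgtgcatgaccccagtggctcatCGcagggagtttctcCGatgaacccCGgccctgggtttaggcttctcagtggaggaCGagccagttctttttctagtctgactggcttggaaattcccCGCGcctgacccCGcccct
Nfkbie: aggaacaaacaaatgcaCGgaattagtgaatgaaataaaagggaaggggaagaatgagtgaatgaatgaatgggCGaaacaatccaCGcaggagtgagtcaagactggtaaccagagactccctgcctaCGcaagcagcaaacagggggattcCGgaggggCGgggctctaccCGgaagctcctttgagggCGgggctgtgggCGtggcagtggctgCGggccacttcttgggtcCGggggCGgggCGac
Nfkbid: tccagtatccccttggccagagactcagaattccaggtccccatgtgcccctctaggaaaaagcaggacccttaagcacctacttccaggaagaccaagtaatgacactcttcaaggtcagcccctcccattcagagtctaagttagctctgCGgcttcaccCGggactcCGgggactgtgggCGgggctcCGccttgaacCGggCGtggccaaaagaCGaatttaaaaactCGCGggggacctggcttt

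Nfkbia had 8 CpG pairs and 59.2% G and C, Nfkbie 13 and 57.6%, and the first start of Nfkbid 10 and 56.4%. The second start of Nfkbid, with 33 pairs and 70.0%, was far richer than these, and the third had 10 and 54.8%. The figures stand against medians of 6 pairs and 52.4% over all 32851 windows. Of the 13 windows of the 8 genes, 12 held more CpG pairs than that median, and the exception was the second start of Tnfaip3, with 6. Rel, whose ratio was 0.94, had the most, 37 pairs, and Bcl3, with the highest ratio, had 19. These counts describe the reference sequence, and neither methylation nor binding was measured here.

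The counts of each list below are to be read against 9.58% higher and 12.3% lower over all measured genes. Upstream of the IkB proteins, the core IKK complex differed little. Chuk and Ikbkb, the catalytic subunits, had log2 ratios of -0.02 and -0.01, and Ikbkg, which encodes NEMO, 0.46. In the list of 6 kinases and adaptors of the IKK group, 2 were higher and 0 lower (median 0.23). Both were IKK-related kinases, which act in innate sensing: Ikbke was 1.92-fold higher (1.86 to 1.98), at 389 and 747 CPM, and Tbk1 1.60-fold higher (1.502 to 1.71), at 93.2 and 149 CPM. Under 2 of the 4 other scalings 1 of these passed the rule instead of both.

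Among 17 genes of TRAF, cIAP and linear ubiquitin ligases, 2 were higher and 1 lower (median 0.09). Birc3, which encodes cIAP2, was 2.07-fold higher (1.98 to 2.18), at 146 and 303 CPM, and Traf6, an adaptor ligase, was 1.72-fold higher (1.64 to 1.80). Ube2v2, a cofactor for lysine-63 chains, had 124 and 26 counts, 3.83-fold lower (2.49 to 6.09). Ube2v1, the related cofactor in the list, had 311 and 265 counts and a log2 ratio of 0.09, and did not pass the rule. It was named after its value was seen. At the stricter limit of 20 CPM, Ube2v2 is no longer measured. In the list for the non-canonical arm, 2 of 9 genes were higher and 0 lower (median 0.33). Only Birc3, which is in both lists, is a gene of that arm. The other, Map3k8, encodes the kinase TPL2, which p105 holds inactive and which acts outside the p100 arm. It was at 43.3 and 84.5 CPM (1.95-fold, 1.78 to 2.14). Map3k14, which encodes NIK, the kinase that starts p100 processing, had a log2 ratio of 0.64 without passing the rule.

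Of 15 genes of A20 partners and other deubiquitinases of the pathway, 2 were higher and 0 lower (median 0.18), or 1 higher at 20 CPM, where Tnfaip3 itself, left out of the list, was lower. Tax1bp1, an adaptor of A20, went from 268 to 435 CPM, 1.62-fold higher (1.56 to 1.69). Tnip3, which encodes an A20-binding protein, was low, with 24 and 70 counts, 3.63-fold higher (2.26 to 6.04). Cyld and Otulin, 2 other deubiquitinases of the pathway, had log2 ratios of 0.23 and -0.08.

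Of 15 genes of the ligases that mark IkB, p105 and p100 and of the p97 segregase, 3 were higher and 0 lower (median 0.03). Rnf123, which encodes KPC1, a ligase of p105, went from 198 to 332 CPM, 1.68-fold higher (1.60 to 1.75). Ufd1l and Nploc4, the cofactors of p97, were 2.45-fold (2.24 to 2.67) and 1.64-fold higher, Nploc4 being named after its value was seen. Btrc and Fbxw11, which encode the F-box proteins that bind phosphorylated IkB, had log2 ratios of 0.65 and -0.47, and neither passed the rule. Of 13 genes of nuclear control of RelA and c-Rel, 1 was higher and 0 lower (median 0.16). It was Socs1, a feedback inhibitor of cytokine signalling that also binds p65, at 33.2 and 124 CPM, 3.73-fold higher (3.40 to 4.10). In the remaining IkB family genes, 0 of 3 measured passed the rule, with Nfkbib at a log2 ratio of -0.16 and Nfkbiz at -0.22.

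Among the pathway lists given here, that of receptors that feed NF-kB had the largest share of lower genes. Of 22, 8 were lower and 3 higher (median -0.21), and at 20 CPM 6 were lower and 2 higher. Il1r1 and Tlr4 reached 1 CPM in a single library, the one in which each was higher, so their calls carry no weight. Il1rl1, the interleukin-33 receptor ST2, went from 92.4 to 13.4 CPM, 6.90-fold lower (5.94 to 8.04), and Il1r1 had 30 and 0 counts. The costimulatory receptors Icos and Cd28 were 6.18-fold and 3.26-fold lower, and Tnfrsf1b, which encodes TNF receptor 2, was 3.27-fold lower. Also lower were Il18r1, Il18rap and Tnfrsf13c, the last a gene of the TNF receptor family that B cells express. Tnfrsf25, which encodes DR3, went from 101 to 215 CPM, 2.12-fold higher (2.00 to 2.25). Tlr4, with 6 and 32 counts, and Tnfrsf4, at 1.56-fold, were also higher. With library totals that leave out the mitochondrial genes, 2 receptors were higher instead of 3. Icos, Cd28, Il18r1, Il18rap, Tnfrsf1b, Tnfrsf13c and Tnfrsf4 were named after their values were seen.

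Targets of NF-kB outside the family divided into both directions, as the members had. Of 38 measured target genes, 10 were higher and 8 lower (median 0.04), beside 9.58% and 12.3% of all measured genes. With upper-quartile factors 11 were higher, and with library totals without the mitochondrial genes 9 were. Irf1, an interferon regulatory factor, was 2.62-fold higher (2.50 to 2.74), at 146 and 383 CPM, and Lta, which encodes lymphotoxin alpha, a ligand of the TNF family, 2.45-fold higher (2.25 to 2.68), at 43.4 and 107 CPM. Among the higher ones Irf1, Tap1 and Psmb9 are interferon-induced as well. Foxp3, on which the cells were sorted, and Il2ra were also among the higher targets. Gadd45b, a stress response gene, went from 93.5 to 31.1 CPM, 3.01-fold lower (2.71 to 3.35), and Cd83, a surface protein of activated lymphocytes, from 82.3 to 29.01 CPM, 2.84-fold lower (2.54 to 3.17). Among the lower ones were the survival genes Bcl2a1b, Bcl2a1d and Bcl2l1, and Bcl2a1b and Bcl2a1d are near copies whose reads may have been divided between them. Gadd45b and Junb are also in the immediate early list. Tap1, Psmb9, Foxp3, Il2ra, Bcl2a1b, Bcl2a1d, Bcl2l1 and Junb were named after their values were seen.

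**Figure D4:**
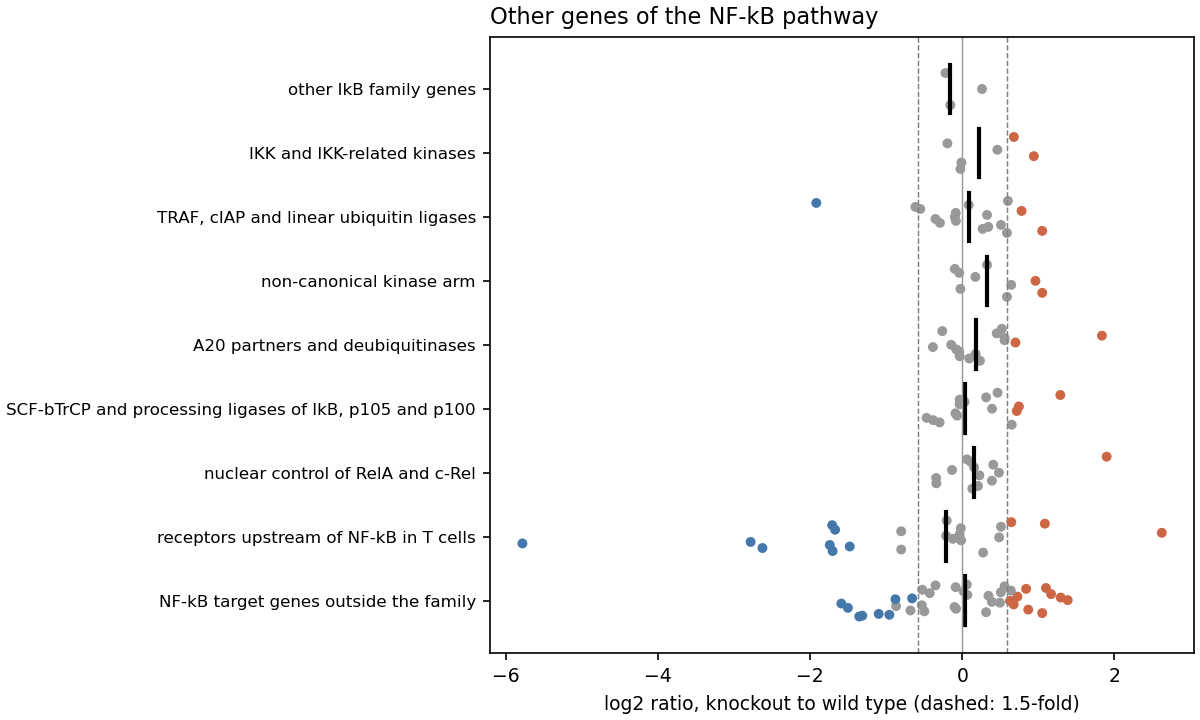
log2 ratio of knockout to wild type for the measured genes of each pathway list described here, the 10 genes of the family left out; orange and blue points were higher and lower with the interval wholly beyond 1.5-fold, and black bars are list medians. Most points lie between the dashed lines at 1.5-fold and the receptor list reaches furthest left; its leftmost point, Il1r1, has 0 counts in the knockout library and is placed by the 0.5 counts added.

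Other spleen cells also express the family, and markers of some of them differed between the libraries. B cell markers were lower in 10 of 12 and higher in 0, with a summed level of 162 and 44.7 CPM, and erythroid markers were lower in 9 of 9 (98.3 and 22.2 CPM). Neutrophil markers (4 of 5 measured lower, 17.3 and 6.19 CPM), markers of conventional (4 of 7 lower, 24.9 and 19.04 CPM) and plasmacytoid dendritic cells (3 of 5 lower, 1 higher, 89.4 and 95.1 CPM) and of stromal and endothelial cells (3 of 5 lower, 177 and 190 CPM) were lower in part. Some of the markers called lower reached 1 CPM in the wild-type library alone, so their calls are no support for a difference. Among them were Cr2 of the B cell list, Klf1 and Epor of the erythroid list, and Col1a1, Col1a2 and Cdh5, all 3 of the stromal calls. Others were Xcr1, Clec9a and Cd209a of the conventional dendritic list and Mpo and Camp of the neutrophil list. Of the stromal and endothelial sum, Pecam1 alone held 170 and 189 CPM, and it was not called. At 20 CPM, 5 B cell and 2 erythroid markers were lower, but each of them reached that limit in the wild-type library alone. No neutrophil or conventional dendritic marker reached 20 CPM, nor did any of the lower plasmacytoid markers, and of the stromal ones only Pecam1 did. That limit therefore cannot say whether the markers below it differed. Monocyte and macrophage markers were higher in 1 of 12 and lower in 0 (427 and 517 CPM), and both CD8 genes were higher (18.8 and 47.4 CPM). NK cell markers (1 of 3 higher), plasma cell markers (1 of 5 higher, 1 lower), gamma-delta T cell markers (1 of 3 lower) and platelet markers (0 of 1) had at most 1 call in a direction, and 0 of 5 mast cell and basophil markers were measured. Klra4, Klra8 and Klre1 of NK cells, Elane of neutrophils, Pf4 and Ppbp of platelets, Fcer1a and Ms4a2 of mast cells, Col3a1 and Pdgfra of stromal cells and Tnfrsf17 of plasma cells had 0 counts in both libraries, which allows up to 0.166 CPM in wild-type and 0.206 CPM in knockout cells. Blk is in both the B cell and the gamma-delta T cell list, and Prdm1 and Xbp1 of the plasma cell list are also expressed by Treg cells. The markers of the Treg cells themselves were 2 higher and 2 lower of 11, with a summed level of 6522 and 6444 CPM. The higher ones were Foxp3 (1.60-fold) and Il2ra (1.55-fold). The lower ones were Ctla4 (1120 and 703 CPM) and Ikzf2 (825 and 526 CPM), Ikzf2 being named after its value was seen. With library totals without the mitochondrial genes 1 Treg marker was higher, and with upper-quartile factors 1 was lower. The part of these cells in the levels of the NF-kB genes was not tested.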

How the data were processed

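RNA of sorted Treg cells from 2 genotypes was sequenced, with 1 library each, and the kit named in the labels does not mark strand. The submitters' processing notes name TopHat, HTSeq and mm10. Their versions and the annotation: not given in the sources used here. The deposited tables hold, per the file headers, whole-number read counts and FPKM values per gene name. The authors' FPKM equals the count scaled by the library total and by a fixed length for each gene. Counts were scaled with TMM factors (edgeR 4.0.16, R 4.3.3). DESeq2 1.42.0 size factors, upper-quartile factors and plain totals were alternatives. With 1 library per genotype no model was fitted. Ratios have exact 95% conditional-binomial intervals, and log2 ratios had 0.5 counts added. Shares of FPKM have delta-method intervals. Pathway and marker lists, and the members, were chosen with earlier results of these data known. Named genes were all members, up to 2 at each end of each pathway list, the most abundant gene of each marker list, and markers at 0 in both. Most of those marker genes enter the text through their list alone. Chuk, Ikbkb, Ikbkg, Map3k14, Cyld, Otulin, Btrc, Fbxw11, Nfkbib and Nfkbiz were named outside this rule, for their known roles, after their values were seen, as were the genes so marked in the text. Family members were left out of the other lists, and 1 pathway list is not reported here. Coordinates and lengths come from GENCODE M21 (mm10), and promoter sequences from RefSeq. The calculation was tested on simulated data. Software was Python 3.11.15 with pandas 2.3.3, scipy 1.17.1, matplotlib 3.10.9 and numpy 2.4.6.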

Additional observations from a re-analysis of the deposited data

How the results depend on the processing

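Of the 10 genes, 3 were higher and 2 lower under each of the 4 other scalings and by the point ratio. The counts were also 3 and 2 without a filter, at 20 CPM and without Nfkb2, an alternative added after the data were seen. These last settings could not change them, because all 10 genes pass 20 CPM and Nfkb2 was not called. Requiring intervals beyond 2-fold left 1 higher and 1 lower member, and 585 higher and 892 lower genes in all. The 20 CPM limit gave 699 and 831 genes, and the point ratio 2346 and 2651. Of the ratios, 2 moved outside their intervals, both with upper-quartile factors, to 1.07 for Nfkbia and 0.427 for Tnfaip3. Shares depended on length. With the union of annotated exons the wild-type and knockout shares were 21.2% and 16.9% for Rel, 30.2% and 28.6% for Rela, 10.1% and 15.3% for Relb, 18.1% and 15.1% for Nfkb1, and 20.2% and 24.02% for Nfkb2. With the longest coding transcript, added after the data were seen, they were 14.1% and 11.3%, 22.7% and 21.7%, 11.9% and 18.1%, 35.3% and 29.7%, and 16.03% and 19.2% in the same order. The ratio of IkB to subunits was 3.23 and 2.97 with the exon union, 2.26 and 2.13 with the longest coding transcript, and 2.75 and 2.48 for Nfkbia and Nfkbie alone. No paired analysis was possible because each genotype has 1 library. For the same reason no library could be left out, and the spread between mice is unknown.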
